A study of Glycine max with 14 samples.

Results

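The comparison set the black seeded soybean line RM30-R* against the brown seeded line RM38-r in seed coats from seeds of 400-500 mg fresh weight. It covered gene models across the genome, and those outside 20 anthocyanin pathway loci named by the study are described. RM38-r is a Clark isoline with the recessive genotype i, r, T. RM30-R* (i, R*, T) is a black revertant of the variegated isoline RM55, which was made by backcrossing the mutable rm allele of a plant introduction into RM38-r. Each line is a single isoline, both share the i and T alleles, the plants were grown in a greenhouse, and the seed coats were dissected from seeds grouped by weight. The RNA-Seq data hold 14 libraries from 5 stages, and the 4 libraries of the 400-500 mg stage were used here: R111 and R155 of RM30-R*, and R113 and R157 of RM38-r. R111 and R113 were treated as one pair and R155 and R157 as the other, since the study describes 2 independent extractions for this stage. The study calls the second extraction of this stage a biological replicate, but neither it nor the labels say whether the plants were separate, so p-values measure only the spread between these libraries.

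Soybean seed coats are black when anthocyanins accumulate in their cells and brown when proanthocyanidins (tannins) do. The R gene encodes a MYB transcription factor, a protein of a family that binds DNA and regulates transcription. The seed coat is maternal tissue around the embryo, so a difference in its RNA can reflect fewer cells of a type or less RNA per cell, which cannot be told apart in bulk samples.

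Expression was deposited as RPKM, a read count scaled by the length of the model and by the number of mapped reads in the library. The 28 gene models whose names start with Glyma13g118 or Glyma13g119 were left out, because they held 19.1% of the summed RPKM in R113 but 4.20% in R111, 0.743% in R155 and 0.659% in R157. The 69397 other models were rescaled to equal 75th percentiles, and all levels below are rescaled RPKM. Of these, 38700 models of 31300 loci reached 0.5 in at least 2 of the 4 libraries and were tested. The digits after Glyma give the chromosome. The table pairs no model with a gene name and none of the IDs matched the RefSeq gene table. So the gene lists by function, the cell type markers and the promoters could not be used. A role is given only where the study names the gene. The pathway was taken as 20 loci that the study names, with 17 tested models. Further members of its gene families could not be set aside. The pathway models stayed in the test and in the shares of tested models.

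The R gene was looked at first in every library. The R gene model, Glyma09g36990, was at 1.02 in R111 and 0.351 in R155 of the black line and at 2.45 in R113 and 3.45 in R157 of the brown line. Its log2 ratios of RM30-R* over RM38-r were -0.95 and -2.21 in the 2 pairs. The study reports that the brown allele lacks a single base, which truncates its protein. It also states that the aligner places no reads with insertions or deletions, so the brown levels may be underestimates. Of the 27 models at least 2-fold higher in the black line in both pairs, 4 belong to the anthocyanin pathway. They are ANS2 (Glyma01g42350.1) and ANS3 (Glyma11g03010.1), encoding anthocyanidin synthase, the enzyme that makes coloured anthocyanidins, together with DFR2 (Glyma17g37060.1) and F3'5'H (Glyma13g04210.1). They are mentioned below only for comparison.

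Very few models were at least 2-fold apart between the lines in the same direction in both pairs. On log2(RPKM + 0.5), 27 models (0.0698% of those tested) were at least 2-fold higher in RM30-R* in both pairs and 12 (0.031%) were at least 2-fold lower. Outside the pathway, 23 models of 22 loci were higher and 12 models of 10 loci were lower. Another 39 models (0.101%) were at least 2-fold apart in both pairs but in opposite directions. The limma test with the pair as a block found 0 models (0.0%) past an adjusted p of 0.05, and its smallest adjusted p was 0.15. ANS2 and ANS3, which have the lowest p-values among the study's pathway genes at this stage, had fitted log2 differences of 2.25 and 2.30. Each had a limma adjusted p of 0.896. With 2 pairs the test did not call even these models, so its count of 0 is no measure of how many models differed. At an unadjusted p under 0.05 the limma test held 846 models that were higher and 920 that were lower, together 4.56% of those tested.

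**Figure D1:**
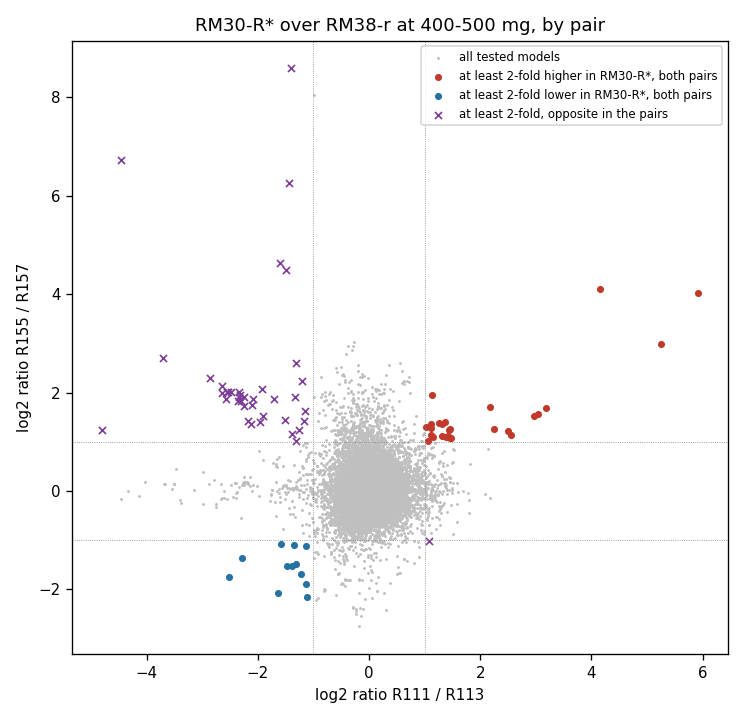
The log2 ratio of RM30-R* over RM38-r is plotted for the pair R111 and R113 on the horizontal axis and for the pair R155 and R157 on the vertical axis, 1 point a gene model. The 27 higher models, 4 pathway models among them, lie at the upper right, the 12 lower models at the lower left, and 38 of the 39 opposite models at the upper left.

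Most models were level between the lines. In both pairs, 90.7% of the tested models lay within 1.5-fold. The log2 ratios had an SD of 0.29 over models in the first pair and 0.35 in the second. As a description across genes, which are not independent replicates, the ratios of the 2 pairs had a Pearson correlation of 0.0 over 38700 models and the same sign in 52.6% of them. Taken one pair at a time, 203 models were at least 2-fold higher and 224 lower in R111 over R113, and 567 higher and 175 lower in R155 over R157. The libraries of a pair resembled each other more than libraries of the same line did, with correlations of log values of 0.985 and 0.978 within pairs against 0.953 for the RM30-R* libraries and 0.952 for the RM38-r libraries. Both RM30-R* libraries lay above both RM38-r libraries for 9.45% of the models and below them for 9.41%.

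On the log2(RPKM + 0.5) scale, which shrinks the ratios of low models, 3 models outside the pathway had the largest ratios that agreed in both pairs. They were well expressed in black seed coats and low in brown ones. Glyma15g12210.1 was at 18.3 in R111 and 38.9 in R155, against 0.559 in R113 and 1.78 in R157. Both black libraries stood far above both brown ones, and the log2 ratios were 4.15 and 4.11. The fitted log2 difference was 4.13 ± 0.10 (SE, n = 2 pairs; limma adjusted p = 0.15), and this model had the smallest adjusted p of all.

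Glyma11g33260.1 was at 36.6 in R111 and 13.0 in R155, against 0.115 in R113 and 0.331 in R157. The brown libraries held 5 and 17 reads, recovered from the RPKM steps, and the black ones 2175 and 659. Over the summed reads, the 95% interval of black over brown ran from 73.3-fold to 178-fold, which covers counting error only. Its fitted log2 difference was 4.97 ± 0.50 (SE, n = 2 pairs; limma adjusted p = 0.896).

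Glyma18g04960.1 was the only model under 0.1 in both libraries of one line and at 2 or more in both of the other. It was at 20.2 in R111 and 3.87 in R155, against 0.0396 in R113 and 0.0558 in R157, where 3 and 5 reads were counted. The black libraries differed from each other by more than 5-fold, with a mean of 12.0 ± 11.5 (SD, n = 2), yet both stood far above the brown ones. Over the summed reads, 2427 against 8, the difference was 262-fold with a counting interval of 133 to 607.

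A second set of higher models was expressed in both lines, at 0.784 to 7.70 in the brown libraries. Glyma19g36470.1 was at 10.5 in R111 and 13.8 in R155, against 4.41 in R113 and 6.22 in R157. Glyma17g07250.1 was at 14.4 and 31.3 in the black libraries R111 and R155 and at 6.33 and 7.70 in the brown libraries R113 and R157. Glyma04g04700.1 was at 26.3 in R111 and 10.6 in R155, against 4.07 in R113 and 4.58 in R157. In all 3 the lines did not overlap, in models chosen from these same libraries for being apart. In the latter pair of models the 2 black libraries differed by more than 2-fold. Glyma04g10750.2 was at 12.3 in R111 and 9.21 in R155, against 4.14 in R113 and 4.08 in R157, and the other model of that locus, Glyma04g10750.3, had nearly the same values, since models of 1 locus share reads. Glyma01g17320.1 was at 7.40 in R111 and 6.12 in R155, against 2.57 in R113 and 2.02 in R157, with a fitted log2 difference of 1.38 ± 0.11 (SE, n = 2 pairs; limma adjusted p = 0.896). Glyma06g04780.1 was at 8.60 and 2.49 in the black libraries and at 1.11 and 0.784 in the brown ones. The replicates of the black line were again further apart here than those of the brown line.

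Several higher models were expressed at low levels in black seed coats and close to absent in brown ones. Glyma03g03620.1 was at 1.95 in R111 and 1.49 in R155, against 0.0444 in R113 and 0.112 in R157, or 99 reads in the black libraries and 4 in the brown ones. Glyma07g15030.1 was at 0.887 and 0.648 in the black libraries and at 0.0296 and 0.0375 in the brown ones. The reads of these 2 models gave folds of 21.4 (counting interval 8.09 to 80.0) and 23.0 (9.60 to 71.9). Glyma09g37790.1 was at 1.08 in R111 and 0.794 in R155, against 0.0934 in R113 and 0.0964 in R157. Glyma10g16680.1 and Glyma15g42890.1 have the same length of 1218 nt and nearly the same values, at 1.13 and 1.18 in R111 and at 0.0718 each in R157. Reads that match both copies could be counted in each, so they are reported as one uncertain observation. Of the 27 higher models, 10 had fewer than 10 reads in their lowest library, against 1.59% of all tested models.

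The remaining higher models were Glyma06g10620.1, Glyma06g14100.1, Glyma09g24460.1, Glyma09g37630.1, Glyma13g28640.1, Glyma14g28130.1, Glyma18g14490.1 and Glyma20g31520.1. Their fitted log2 differences ran from 1.04 for Glyma14g28130.1 to 1.34 for Glyma06g10620.1. Glyma14g28130.1 is a model of 149 nt with 16 and 10 reads in the black libraries and 3 and 2 in the brown ones, the fewest of this group. Glyma20g31520.1 had the closest pair of black libraries, at 2.91 and 2.87, with 1.17 and 0.875 in brown seed coats.

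Among the models lower in black seed coats, 2 had a mean of at least 5 over the 4 libraries. Glyma07g06220.1 was at 10.6 in R111 and 8.47 in R155, against 27.7 in R113 and 18.7 in R157, with a fitted log2 difference of -1.22 ± 0.10 (SE, n = 2 pairs; limma adjusted p = 0.896). Glyma10g01300.1 was at 1.32 and 2.75 in the black libraries and at 9.90 and 10.4 in the brown ones, a fitted log2 difference of -2.13 ± 0.22. Both models had brown libraries well above the black ones. Glyma10g05800.1 was at 0.550 in R111 and 2.50 in R155, against 2.77 in R113 and 12.2 in R157. Here the replicates of each line differed by more than 4-fold, and the gap between the lines shows within pairs, while R155 and R113 were nearly level.

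The other lower models were expressed at low levels. Glyma08g21260.1 was at 0.0129 and 0.00759 in the black libraries, from 2 reads and 1 read, and at 1.03 and 0.567 in the brown ones, from 117 and 76 reads. The summed reads gave a 74.5-fold difference with a counting interval of 25.1 to 365. Glyma0048s00350.1, on an unplaced scaffold, was at 0.0261 and 0.0408 in the black libraries and at 2.07 and 0.892 in the brown ones, a 43.5-fold difference (20.8 to 109). In both models the brown line carried nearly all of the reads. Glyma15g21330.1 had the tightest replicates, at 0.297 and 0.282 in black and 1.25 and 1.21 in brown seed coats. Glyma19g41610.3 was at 0.678 in R111 and 0.487 in R155, against 2.77 in R113 and 2.34 in R157, and Glyma19g41610.2 of the same locus followed it. Glyma07g05770.1 and Glyma05g14120.1 were lower by 1.39 and 1.46 in the fitted log2 scale, at means of 0.465 against 2.08 and 0.133 against 1.29.

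Agreeing models lay on 15 of the 20 chromosomes for the higher direction and on 7 for the lower one, with at most 3 higher models on one chromosome. Some higher models on different chromosomes had parallel values over the libraries. Glyma07g15030.1, Glyma09g37790.1, Glyma10g16680.1 and Glyma15g42890.1 did, and so did Glyma01g17320.1, Glyma06g10620.1, Glyma09g24460.1 and Glyma20g31520.1. The authors counted a read at several alignments, so these loci may not be separate observations. Sharing of reads was not tested. No stretch of 10 neighbouring tested loci held 4 models at least 2-fold apart in the same direction. On chromosome 9, 3 loci followed the R gene in name order. Glyma09g37600, which was lower, came 27 tested loci after R, Glyma09g37630, which was higher, 29 loci after it, and Glyma09g37790, which was higher, 36 loci after it. Glyma09g37600.1 was at 0.889 in R111 and 0.0774 in R155, against 2.52 in R113 and 2.05 in R157. Glyma09g37630.1 was at 1.18 and 0.950 in the black libraries and at 0.276 and 0.160 in the brown ones. Neighbours in this stretch thus differed in direction. The tnp2 transposase models that the study relates to the transposon in R* were level, with Glyma05g23600.1 at 1.66 and 1.46 in the black libraries and 1.54 and 1.5 in the brown ones, and Glyma15g21480.1 at 1.32 and 1.21 against 1.29 and 1.26. The study reports that sequences similar to the transposon recur across the genome and that the origin of matching reads could not be settled. So these levels may include reads of other copies.

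The models that differed in opposite directions were mostly one group of neighbours. Of the 39, 38 were lower in R111 than in R113 and higher in R155 than in R157, and 23 were loci of chromosome 16 from Glyma16g30210 to Glyma16g31850, a stretch of 75 tested loci. In these 23 models the medians were 0.0765 in R111 and 3.21 in R155 of the black line, and 2.33 in R113 and 0.483 in R157 of the brown line. So R155 and R113 were high and R111 and R157 low, which does not follow the lines. All 23 had this pattern, at levels from 0.957 to 13.5 in R155 and from 0.824 to 7.74 in R113. Reads shared between similar copies could be counted in several of them. Glyma15g13750.1 was at 452 in R155, against 6.82 in R111, 18.9 in R113 and 0.683 in R157. Glyma07g36530.1 and Glyma07g36540.1 were listed at 0 in R111 and R157 and reached 10.7 and 11.9 in R155. Glyma13g25530.1 was at 27.2 in R113 alone, with no more than 0.679 in the other 3 libraries.

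**Figure D2:**
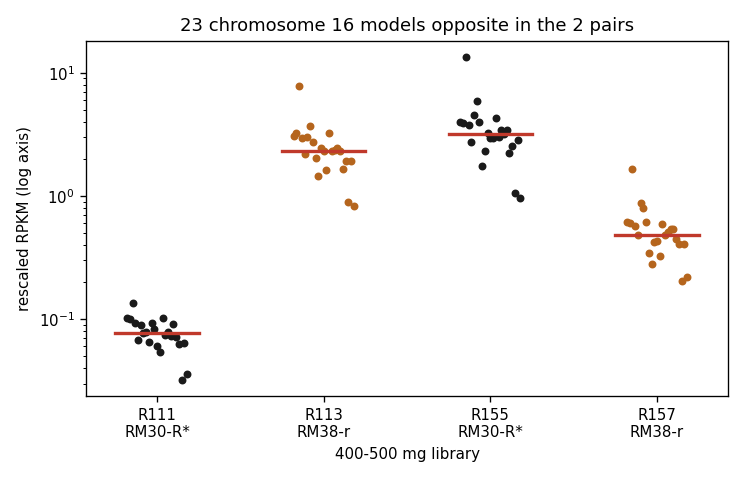
Rescaled RPKM on a log axis of the 23 chromosome 16 models in the 4 libraries, 1 point a model, with the median as a red bar. The medians of 3.21 in R155 and 2.33 in R113 stand above those of 0.0765 in R111 and 0.483 in R157.

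The members were chosen at 400-500 mg, so the 10 libraries of the other stages show how far the line difference holds elsewhere. For each of the 39 members, pathway models included, a library was placed on the RM30-R* or the RM38-r side of the midpoint of the 4 log values at 400-500 mg. On the RM30-R* side stood 29 members in R42, 30 in R154 and 31 in R110, all labelled RM30-R*, against 14 in R43, 6 in R156 and 10 in R112, all labelled RM38-r. The pair at 200-300 mg and one pair at 300-400 mg did not separate in this way. At 200-300 mg, R122, labelled RM30-R*, had 34 members on the RM30-R* side and R124, labelled RM38-r, had 36. At 300-400 mg, R123, labelled RM30-R*, had 8 and R125, labelled RM38-r, had 7. So R124, labelled RM38-r, lay on the side of the black line for most members. R123, labelled RM30-R*, lay on the side of the brown line for most members. R122 and R125 of the same stages lay on the side of the line they are labelled with. The study aligned reads to the R transcript in both lines at all 5 stages. It reports that RM38-r reads lacked the base deleted in the brown allele, without a statement for each library. Whether R123 and R124 carry the right labels was not tested here, and the labels were followed. Stage also differs between these libraries and the midpoint, and its part was not tested. The midpoint count was not made over all tested models, so shares are given by pair. In R42 over R43, 23 of the 27 higher members were higher (all tested 48.8%) and 12 of the 12 lower ones were lower (51.1%). In R154 over R156 these counts were 23 (56.3%) and 11 (43.7%). In R110 over R112 they were 26 (54.7%) and 11 (45.2%). In R122 over R124, 16 of the 27 higher members were higher, against 44.7% of all tested models. Of the 12 lower members, 5 were lower there, against 55.3%. In R123 over R125, 17 higher members were higher (all tested 50.3%) and 4 lower members were lower (all tested 49.7%). Some members that kept the labelled order are given here, picked after their values were seen. ANS2 was at 12.6 in R123 against 3.36 in R125, ANS3 at 17.0 against 3.21, and Glyma19g36470.1 at 81.7 against 18.8. Glyma19g36470.1 was also higher in R122, at 36.4, than in R124, at 15.9. R122, R123, R124 and R125 are not part of the 400-500 mg comparison.

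**Figure D3:**
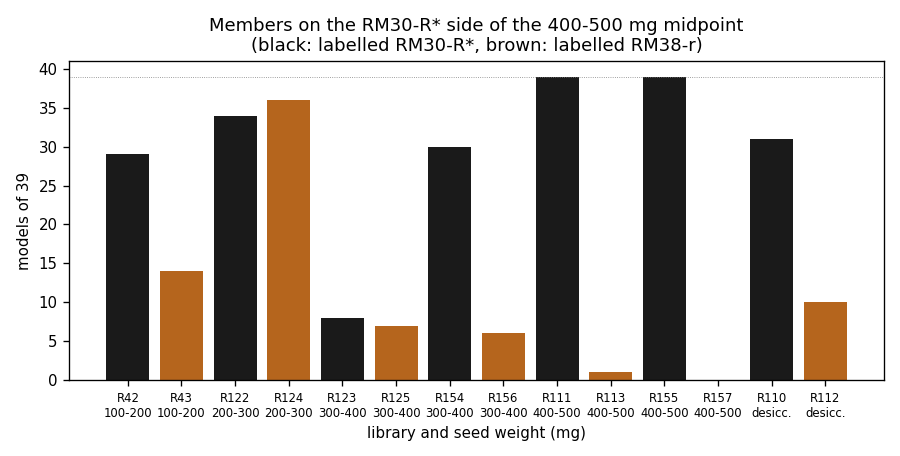
Bars give the number of the 39 members on the RM30-R* side of the 400-500 mg midpoint in each of the 14 libraries, black for libraries labelled RM30-R* and brown for RM38-r. The libraries used to choose members stand at 39, 39, 1 and 0, R124 stands at 36 beside R122 at 34, and R123 at 8 beside R125 at 7. This count was not made over all tested models.

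Among single models, picked after their values were seen, Glyma15g12210.1 was at 32.1 in R122 and 26.2 in R124, and at 3.62 in R123 and 1.47 in R125, while R154 and R156 were at 30.0 and 2.93. Glyma11g33260.1 was at 19.95 in R122 and 21.7 in R124, at 0.154 in R123 and 0.184 in R125, and at 12.1 in R110 against 0.0255 in R112. Glyma09g37790.1 was at 0.582 in R122 and 0.702 in R124, and at 0.0695 in R123 and 0.0621 in R125. In these 3 models R122 and R124 were within 1.5-fold of each other and R123 and R125 were below them. Of the 27 higher models, 2 were at least 2-fold higher in R122 over R124 and 4 in R123 over R125, against 1.5% and 3.73% of all tested models. By pair, the median log2 ratio of the 27 higher models was 0.96 in R42 over R43, 1.25 in R154 over R156 and 1.27 in R110 over R112, but 0.13 in R122 over R124 and 0.15 in R123 over R125, where the medians of all tested models lay between -0.03 and 0.05. For the 12 lower models the medians were -0.64, -1.04 and -0.68 in the first 3 of these pairs and 0.03 and 0.14 in the other 2.

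**Figure D4:**
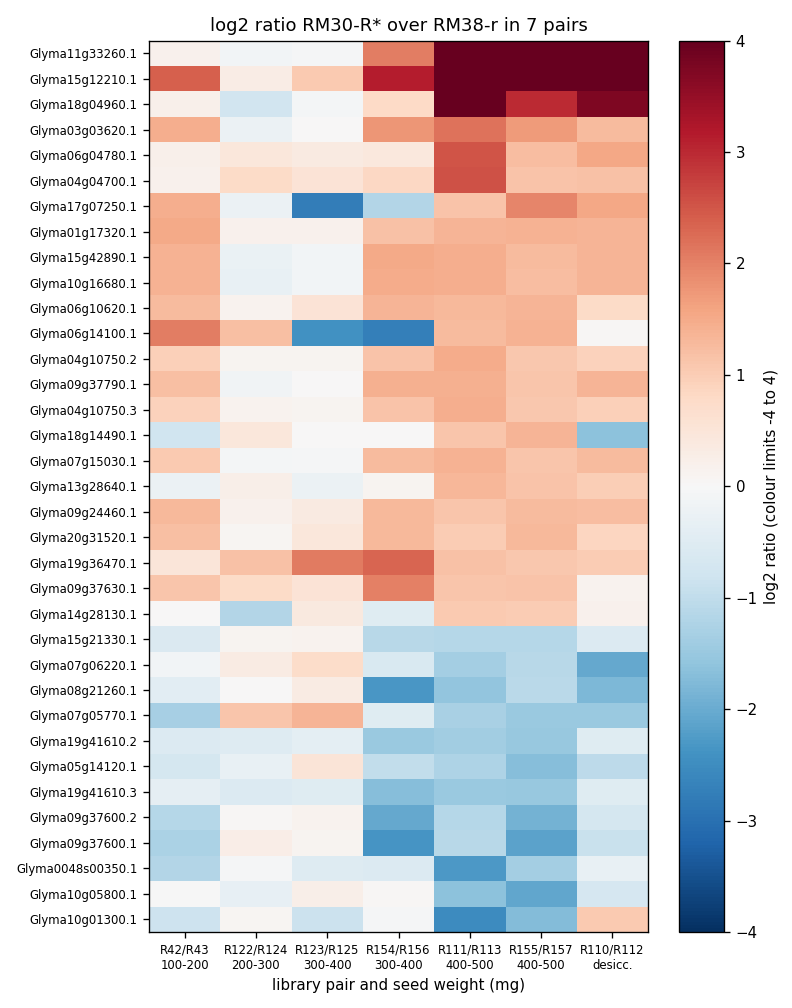
Colours give the log2 ratio of RM30-R* over RM38-r on the log2(RPKM + 0.5) scale for the 35 agreeing models outside the pathway in the 7 library pairs, red for higher in RM30-R*. Most rows hold their colour at 100-200 mg, in R154 over R156 and at desiccation and are pale in R122 over R124 and R123 over R125.

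A few members differed in the other direction at 300-400 mg. Glyma06g14100.1 was higher in RM30-R* at 400-500 mg, at 3.16 and 6.15 against 1.03 and 2.05, and lower at 300-400 mg, at 1.83 in R123 and 6.63 in R154 against 11.9 in R125 and 46.4 in R156. Glyma17g07250.1 likewise had log2 ratios of 1.13 and 1.96 at 400-500 mg and of -2.78 and -1.16 at 300-400 mg. At 300-400 mg the blocked limma test called 192 models higher (0.496%) and 325 lower (0.84%), a test that rests on R123 and that called 0 models without the replicate block. Of the 39 members, 3 higher ones passed the blocked test in the same direction, ANS2, ANS3 and Glyma19g36470.1, and Glyma06g14100.1 passed it in the reverse direction. The line by stage interaction over 8 libraries held 0 models past the adjusted threshold and 3016 at an unadjusted p under 0.05, and without the pair R123 and R125 it also held 0 past the adjusted threshold.

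Below the 2-fold line, the naming rule took further models with a mean of at least 5. Glyma16g28150.1 was at 63.9 in R111 and 72.2 in R155, against 22.2 in R113 and 39.5 in R157. Glyma20g22390.1 was at 33.5 and 22.2 in black and 16.6 and 9.58 in brown seed coats. Both models had a log2 ratio under 1 in one pair. On the lower side, Glyma15g25060.1 was the most abundant, at 226 in R111 and 97.8 in R155 against 396 in R113 and 245 in R157. Glyma19g43470.1, Glyma11g06280.1 and Glyma12g35450.1 had log2 ratios from -0.79 to -0.99 at 400-500 mg and from -4.38 to -5.73 in both pairs of 300-400 mg. At 400-500 mg the lines overlapped in all 3, R111 lying above R157. Leaving out 1 library, in fits that also dropped the pair block, moved their fitted log2 differences to between -1.65 and -0.19. The latter was in Glyma11g06280.1 without R113. At 1.5-fold in both pairs, 136 models (0.351%) were higher, 99 (0.256%) lower and 180 opposite.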

How the data were processed

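RNA from soybean seed coats was sequenced on an Illumina HiSeq2000, and the authors aligned the reads to soybean gene models with Bowtie (version 1, per the submitters' processing notes) and deposited RPKM for each model. The last line of the table was incomplete, leaving 69425 models. Library totals, recovered from the RPKM steps of single reads, ran from 72176124 to 88820963 mapped alignments in the 4 libraries, which sets the counting precision. Intervals are exact 95% binomial intervals on recovered reads and cover counting error only.

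From these values, 28 models were left out and the columns were rescaled to equal 75th percentiles. Models with at least 0.5 RPKM in 2 libraries were tested on log2(RPKM + 0.5) with limma 3.58.1 in R 4.3.3 (empirical Bayes with trend, pair as a block, two-sided, Benjamini-Hochberg over 38700 models). The 2-fold rule has no test. Differences of the libraries from their line means had a correlation of 0.62 within pairs, and the pairing comes from the library numbers and the study's account of 2 extractions.

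Named models were those at least 2-fold apart in both pairs, the 15 per direction with the largest smaller ratio at a mean of at least 5, models under 0.1 in one line and at 2 or more in the other, and the 6 per direction with the highest mean, outside the 20 pathway loci. Members and lists were chosen with earlier results of these data known. Alternatives were other pseudocounts, filters, scalings, blocks and left-out libraries. The fits with a left-out library had no pair block. The 1.5-fold rule and the interaction without R123 and R125 were chosen after seeing the data.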

Additional observations from a re-analysis of the deposited data

Results flagged for a closer look

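In 5 named models both pairs differed one way at 400-500 mg and both the opposite way at 300-400 mg. The line by stage interaction, limma with the pair as a block over 8 libraries, gave a log2 difference of 3.89 for Glyma06g14100.1 (adjusted p = 0.0639), 3.55 for Glyma13g01150.1 (adjusted p = 0.0925), 3.51 for Glyma17g07250.1 (adjusted p = 0.276), 3.34 for Glyma04g10880.1 (adjusted p = 0.337) and -2.0 for Glyma10g05800.1 (adjusted p = 0.228). The first 4 had log2 ratios past 1 at 300-400 mg, whereas Glyma10g05800.1 was nearly level there, with log2 ratios of 0.22 and 0.05 at levels from 0.0686 to 0.34. None of these passed the adjusted threshold, and the 300-400 mg values rest in part on R123.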

How the results depend on the processing

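Among the alternatives that kept all 4 libraries, the number of models past an adjusted p of 0.05 stayed at 0 in all but 1. With the deposited RPKM, not rescaled, it was 676, 497 higher and 179 lower, with the median log2 difference of all models at 0.11, and the cause was not tested. Leaving out a library left 1 library in its line, and these fits also dropped the pair block. They are used for effect sizes only. With all 4 libraries and no replicate block, 0 models passed the adjusted threshold, with 311 at an unadjusted p under 0.05. With 8 libraries and the replicate block, 0 passed it, with 709 at an unadjusted p under 0.05. The 27 models higher in both pairs became 54 at a pseudocount of 0.1, 15 at a pseudocount of 1 and 136 at 1.5-fold. The 12 lower ones became 30, 5 and 99. The smaller pseudocount raises the ratios of low models by construction. The counts under the other scalings and filters were within 1.5 times. A left-out library ends the rule on 2 pairs, so it gave no value there. The 517 calls at 300-400 mg became 0 without the replicate block. Of the named models, Glyma19g02450.1 turned from a log2 difference of -1.54 to 0.001 without R155, in a fit that also dropped the pair block. Within the pair R111 and R113 its log2 ratio was -0.92. No other named model reversed direction. Models with fewer than 10 reads in a library are limited by depth.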
